A study of Mus musculus with 9 samples.

Results

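The 10 genes described here encode the TGF-beta ligands (Tgfb1, Tgfb2, Tgfb3), their receptors (Tgfbr1, Tgfbr2, Tgfbr3) and the latent TGF-beta binding proteins (Ltbp1, Ltbp2, Ltbp3, Ltbp4). They were taken by symbol from a table of 25860 genes, and all 10 were present and passed the filter on low counts. RNA was sequenced from 5 IRE1KO and 4 WT libraries of Osx1-Cre cells, which were flow sorted from cultures of newborn mouse calvaria, the roof of the skull, in medium with 10% serum, and were harvested at 90% confluence. Each library stands for a pool of 3 to 5 pups, 2 to 4 days old. In Osx1-Cre mice the osterix promoter drives Cre in cells that enter the osteoblast lineage, and cells of both genotypes are described by that driver. IRE1, encoded by Ern1, is a stress sensor in the membrane of the endoplasmic reticulum whose RNase arm splices Xbp1 mRNA. The labels name neither the Ern1 allele nor any other allele of the WT cells, nor strain, sex, litter or culture day, so an effect of litter or day and one of genotype cannot be told apart.

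Libraries held 18784636 to 22028075 counts. Levels are given as CPM, read counts relative to library size, after scaling of the libraries by the TMM method, and fold changes are on the log2 scale, IRE1KO over WT. Ern1 itself was at 55.8, 49.8, 54.7, 52.5 and 52.6 CPM in IRE1KO libraries 1 to 5 and at 54.2, 49.1, 43.9 and 41.5 CPM in WT libraries 1 to 4, a total per gene that does not show whether an exon is missing and so checks no label. Of the defining markers of the sorted lineage, Runx2 was at 63.6 to 69.4 CPM in IRE1KO and 59.8 to 75.1 CPM in WT, and Sp7 at 15.6 to 21.2 CPM and 13.6 to 24.6 CPM, while Bglap, the gene of osteocalcin, stayed at or below 0.192 CPM in IRE1KO and 0.103 CPM in WT. Of the other osteoblast markers, Spp1, Ibsp, Dmp1 and Alpl had lower means in IRE1KO, and Sparc, Col1a1 and Col1a2 higher ones. Mean levels in IRE1KO and WT were 0.546 and 2.29 CPM for Ibsp and 0.281 and 1.26 CPM for Dmp1. They were 845 and 1450 CPM for Spp1 and 4960 and 4170 CPM for Sparc. None of the 8 tested passed an adjusted p of 0.05 in edgeR, against 0.634% of all genes. DESeq2 called Ibsp and Dmp1 lower and Sparc higher, against 3.27% of its genes. WT libraries stood further apart than IRE1KO libraries did: the variance between a pair was 2.06 to 11.1 times sampling noise within IRE1KO and 17.3 to 127.9 times within WT. On the first principal component, which held 45.9% of the variance, the IRE1KO libraries lay at -14.0 to 7.17, WT libraries 1 to 3 at -23.4 to 15.1 and WT library 4 at 56.7. WT library 1 did not stand out there: it lay at -23.41, beside WT library 2 at -23.37. Results that turn on WT library 1 or 4 are also given without it. Leaving out WT library 1 or 4 raised the genes called in edgeR from 87 to 1192 or 399, which was known only from the fits.

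TGF-beta is secreted in a latent form, in which the propeptide stays folded around the mature dimer. A latent TGF-beta binding protein attaches to that propeptide in the endoplasmic reticulum and later tethers the complex to fibrillin and fibronectin in the matrix, from which integrins, proteases or thrombospondin release it. The freed ligand binds TGFBR2, which recruits and phosphorylates TGFBR1, and TGFBR1 in turn phosphorylates SMAD2 and SMAD3. In bone the matrix is a large store of latent TGF-beta, and in rodent skulls the ligands take part in keeping sutures open or closing them.

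RefSeq promoter windows, each reaching from 250 bases before to 50 bases after an annotated transcript start (GRCm38.p6), were matched for 8 of the 10 genes and gave 12 windows, the exceptions being Tgfb3 and Tgfbr3. The windows shown are those of Ltbp3, Ltbp4 and Tgfb1, the genes that were called when WT library 1 was left out, and of Tgfb2, the ligand that varied most between libraries. Capitals mark matches on either strand to the GC box GGGCGG, to a SMAD binding element with the letters CAGACA, to the TATA box in the form TATAAA, or to the AP-1 site in the form TGACTCA.
Ltbp3, chr19:5740650-5740949, plus strand: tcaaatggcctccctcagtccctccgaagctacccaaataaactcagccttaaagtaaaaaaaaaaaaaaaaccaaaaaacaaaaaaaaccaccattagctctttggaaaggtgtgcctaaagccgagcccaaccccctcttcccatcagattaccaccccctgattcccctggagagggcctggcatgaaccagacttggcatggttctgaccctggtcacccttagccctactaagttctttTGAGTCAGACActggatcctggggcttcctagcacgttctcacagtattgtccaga
Ltbp4, chr7:27337563-27337862, minus strand: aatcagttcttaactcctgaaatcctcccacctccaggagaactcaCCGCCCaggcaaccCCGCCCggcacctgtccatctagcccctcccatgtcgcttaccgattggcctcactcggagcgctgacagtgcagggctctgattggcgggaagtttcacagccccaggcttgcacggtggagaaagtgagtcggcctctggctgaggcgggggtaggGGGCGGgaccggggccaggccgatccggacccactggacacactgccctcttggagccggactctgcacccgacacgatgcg
Tgfb1, chr7:25686752-25687051, plus strand: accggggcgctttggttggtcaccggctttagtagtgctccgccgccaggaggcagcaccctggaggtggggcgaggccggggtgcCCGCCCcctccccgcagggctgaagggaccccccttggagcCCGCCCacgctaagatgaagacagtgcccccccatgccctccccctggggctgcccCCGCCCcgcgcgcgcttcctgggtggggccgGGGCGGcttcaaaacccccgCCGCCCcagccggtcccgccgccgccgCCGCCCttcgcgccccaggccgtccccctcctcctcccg
Tgfb2, chr1:186705940-186706239, minus strand: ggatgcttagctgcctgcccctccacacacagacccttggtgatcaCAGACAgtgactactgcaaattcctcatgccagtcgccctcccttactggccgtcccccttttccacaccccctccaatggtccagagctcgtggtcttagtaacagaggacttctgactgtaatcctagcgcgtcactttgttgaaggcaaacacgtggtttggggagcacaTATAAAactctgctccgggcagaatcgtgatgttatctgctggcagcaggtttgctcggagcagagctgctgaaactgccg
The Ltbp3 window was AT-rich for this set, with 48.0% G and C and 3 CpG dinucleotides, against 64.3% and 19 in the Ltbp4 window shown and 77.0% and 30 in the Tgfb1 window; the median over all 32851 windows in the table was 52.7%. It held 1 AP-1 match and 1 CAGACA match, which share bases. GC boxes numbered 6 in the Tgfb1 window and 3 in the Ltbp4 window shown. Ltbp4 has 2 more windows, which overlap each other and were richer, with 80.3 and 81.3% G and C, 39 CpG dinucleotides each, and 7 and 9 GC boxes. The Tgfb2 window held a TATA box and a CAGACA match. GGGCGG was found in 6 of the 12 windows, those of 4 genes, and in 35.7% of all windows. CAGACA was found in 4 of the 12, also of 4 genes, and in 21% of all windows, TATAAA in 1 of the 12 and 13.6%, and TGACTCA in 1 of the 12 and 5.2%. The ER stress response element (0.119% of all windows) and the unfolded protein response core TGACGTGG (0.676%) had no match in the 12 windows. A match describes letters only, and neither a match nor its absence shows whether a factor binds.

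None of the 10 genes was called between IRE1KO and WT at an adjusted p under 0.05. That threshold was passed by 0.634% of the 13712 genes tested (quasi-likelihood test of edgeR, Benjamini-Hochberg adjusted), so that a count of 0 among 10 genes is close to that background. The gene nearest to the threshold was Ltbp3, which binds and stores latent TGF-beta and whose loss in mice alters the growth of the skull and skeleton: its mean was 151.5 CPM in IRE1KO (SD 15.5, n = 5) and 233.0 CPM in WT (SD 42.9, n = 4). Ltbp3 was also the sole one of the 10 at an unadjusted p under 0.05, a level that 16.5% of all tested genes reached in edgeR. DESeq2 called 1 of the 10, Ltbp3, against 3.27% of its genes, and limma voom called none, against 0.117%; at an unadjusted p under 0.05 limma voom had 2, against 16.0% of all genes, and DESeq2 1, against 13.6%. The median log2 fold change of the 10 was -0.035, with 7 of them negative, and that of all tested genes -0.005. Groups did not separate completely for any of the 10, against 6.93% of all tested genes.

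**Figure D1:**
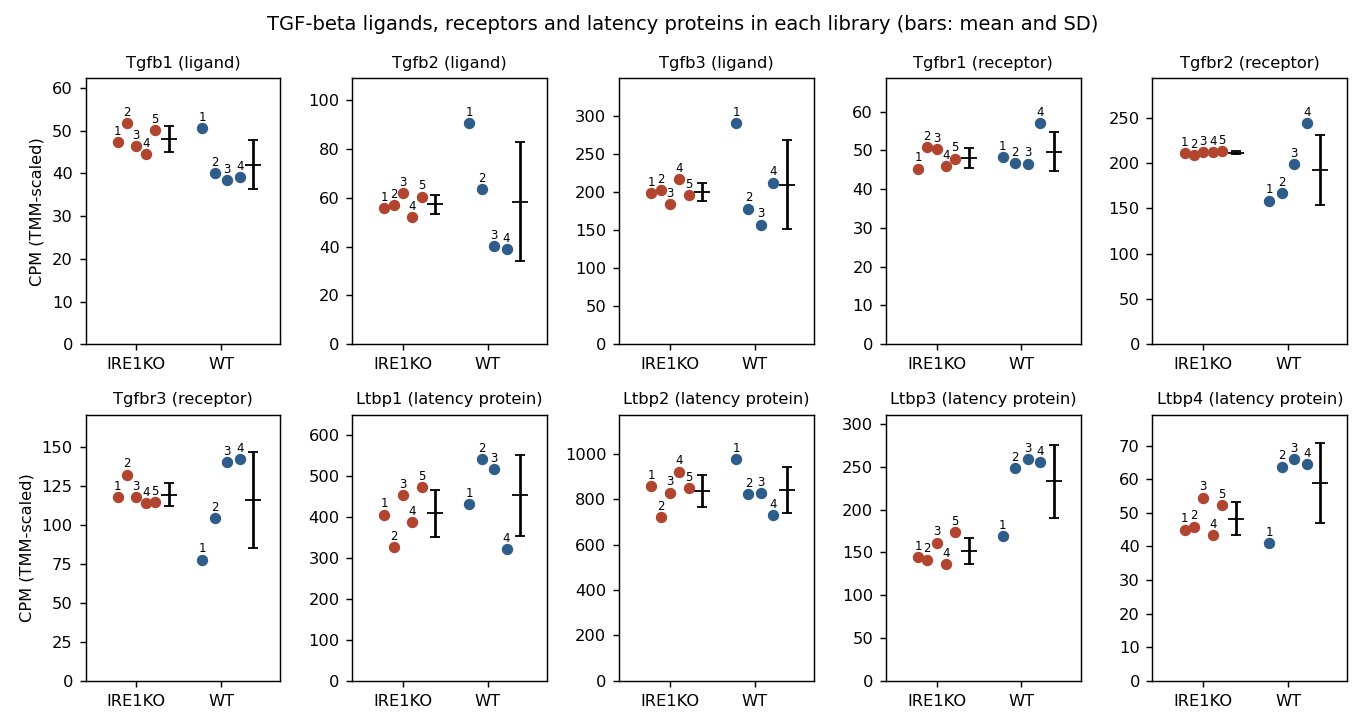
Level of each gene in every library, in TMM-scaled CPM from 0, with IRE1KO libraries on the left and WT libraries on the right of each panel; numbers are library numbers, and bars give the mean and SD. Ltbp3 lies between 136.7 and 173.6 CPM in IRE1KO, and between 248.7 and 258.6 CPM in WT libraries 2 to 4, with WT library 1 at 169.0 CPM.

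Among the ligands, Tgfb3 was by far the most abundant transcript per base of exon. Its level per kilobase of exon was 5.81 to 8.56 times that of Tgfb1 over the 9 libraries. Tgfb3 made up 73.2 to 78.2% of the ligand transcripts, per kilobase, in IRE1KO and 73.5 to 81.2% in WT. Tgfb1 contributed 10.8 to 12.9% in IRE1KO and 8.99 to 12.5% in WT, and Tgfb2 11.0 to 14.4% and 8.75 to 15.3%. The shares overlapped between the genotypes for each of the 3 ligands. With the longest coding length in place of exon length, an alternative chosen after the data were seen, the share of Tgfb3 over all libraries was 66.6% and not 75.9%, with Tgfb3 still the largest.

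Tgfb1 (chromosome 7, 25687002 to 25705077, GRCm38) encodes the ligand that is most abundant in bone matrix. It was at 47.3, 51.9, 46.4, 44.5 and 50.2 CPM in IRE1KO libraries 1 to 5, and at 50.6, 40.1, 38.5 and 39.1 CPM in WT libraries 1 to 4. Every IRE1KO library lay above WT libraries 2 to 4, and WT library 1 lay among the IRE1KO libraries. The log2 fold change was 0.19 ± 0.086 SE, with an adjusted p of 0.307 in edgeR and a 95% interval from -0.0028 to 0.39.

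Tgfb2 (chromosome 1, 186622792 to 186705989), a ligand that needs the co-receptor betaglycan for strong binding to TGFBR2, was nearly level among the IRE1KO libraries, at 55.8, 57.0, 62.0, 52.2 and 60.6 CPM. In the WT libraries it was at 90.9, 63.5, 40.3 and 39.1 CPM, a 2.32-fold range against 1.19-fold in IRE1KO. WT values thus lay on both sides of the IRE1KO values. The log2 fold change was -0.024 ± 0.23 SE (adjusted p = 0.973, edgeR), and its interval of -0.54 to 0.49 covers changes of either sign. The summed level of the 7 markers fixed for mural and smooth muscle cells, most of it Actg2 and Myh11, ran the same way. This sum was 722 to 783 CPM in IRE1KO, and 1205, 947.0, 618.1 and 465.8 CPM in WT libraries 1 to 4. Myh11, Actg2, Des and Kcnj8 had WT values on both sides of the IRE1KO range, and Rgs5, Cspg4 and Abcc9 did not. Rgs5 was at 7.6 to 11.9 CPM in IRE1KO and 5.41 to 8.89 CPM in WT. None of the 6 tested markers of that list passed in edgeR, and none reached an unadjusted p under 0.05 there, in DESeq2 or in limma voom, and their part in the values of Tgfb2 was not tested.

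Tgfb3 (chromosome 12, 86056745 to 86079041), the ligand linked to palate fusion and, in rats, to open sutures, was at 198.8, 202.0, 183.9, 216.5 and 195.7 CPM in IRE1KO. In WT it was at 290.8, 177.9, 157.1 and 212.3 CPM. WT library 1 was again the highest of all 9, WT libraries 2 and 3 lay below every IRE1KO library, and WT library 4 lay among them. The log2 fold change was -0.072 ± 0.16 SE, with an adjusted p of 0.858 in edgeR.

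**Figure D2:**
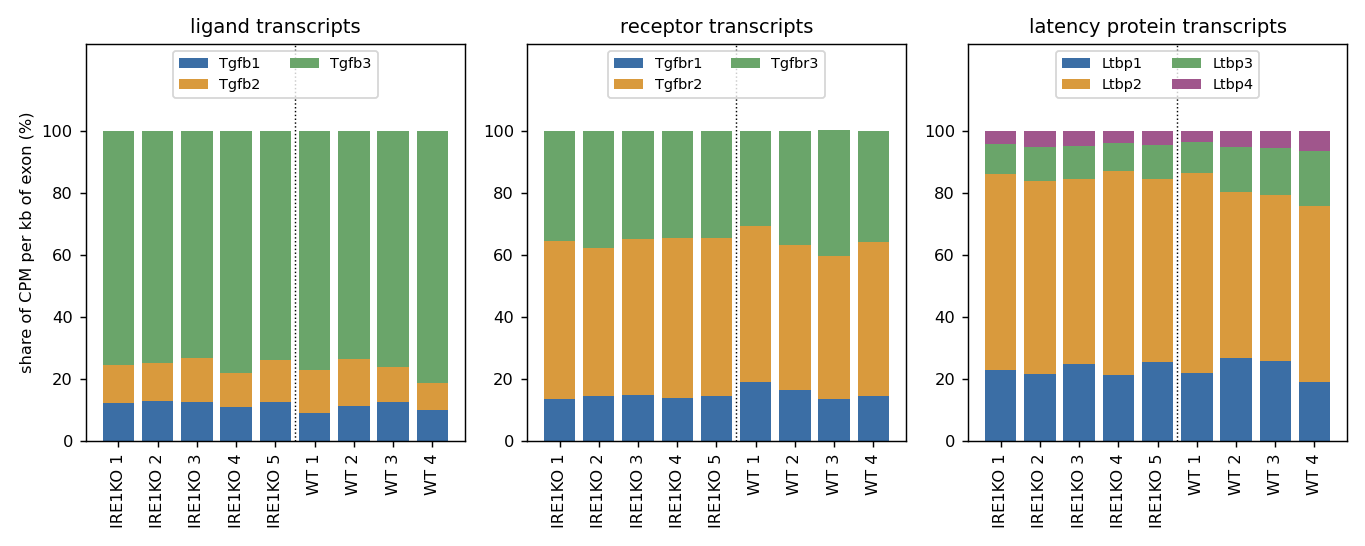
Share of each gene among ligand, receptor and latency protein transcripts in each library, from CPM per kilobase of exon, with IRE1KO libraries left of the dotted line and WT libraries right of it; colours mark genes. Tgfb3 takes 73.2 to 81.2% of ligand transcripts in every library, and Ltbp3 takes 8.85 to 11.0% of latency protein transcripts in IRE1KO and 10.1 to 17.9% in WT.

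The receptors overlapped between genotypes in every case. Tgfbr2, the type II receptor kinase that binds the ligand first, was the most abundant of the 3 per kilobase of exon, at 47.6 to 51.5% of receptor transcripts in IRE1KO and 46.0 to 50.1% in WT, and its level per kilobase was 2.62 to 3.73 times that of Tgfbr1. Tgfbr3, or betaglycan, the co-receptor that presents ligand, took 34.5 to 37.8% and 30.8 to 40.6%, and Tgfbr1, the type I receptor kinase that signals to SMADs, 13.6 to 14.9% and 13.5 to 19.1%.

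Tgfbr2 (chromosome 9, 116084293 to 116175360) was almost constant in IRE1KO, at 211.5, 208.9, 212.0, 212.7 and 213.1 CPM. In WT it was at 158.7, 166.9, 199.4 and 244.8 CPM. The IRE1KO libraries thus sat above WT libraries 1 to 3 and below WT library 4, and spanned a 1.02-fold range against 1.54-fold in WT. The log2 fold change was 0.14 ± 0.11 SE (adjusted p = 0.574, edgeR), and without WT library 4 it was 0.27 with an adjusted p of 0.0644, within a range of 0.0604 to 0.784 over all alternatives. The summed level of 10 osteoblast markers, most of it Col1a1 and Col1a2, was 41500 to 46300 CPM in IRE1KO, and 32600, 31300, 36310 and 58800 CPM in WT libraries 1 to 4, and its part in this was not tested. In bulk RNA of sorted cells, fewer cells of a type and less RNA per cell cannot be told apart.

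Tgfbr3 (chromosome 5, 107106570 to 107289629) was at 118.3, 132.6, 118.2, 114.1 and 115.0 CPM in IRE1KO and at 77.9, 104.8, 140.6 and 142.3 CPM in WT. WT libraries 1 and 2 lay below all IRE1KO libraries and WT libraries 3 and 4 above them. Its log2 fold change was 0.040 ± 0.16 SE (adjusted p = 0.931, edgeR), and over the WT libraries it was ordered opposite to Tgfb2, with the lowest value where Tgfb2 was highest. Tgfbr1 (chromosome 4, 47353222 to 47414931) was at 45.3 to 50.9 CPM in IRE1KO and 46.6 to 57.1 CPM in WT. That was the smallest spread of the 10 over all 9 libraries, with an SD of 0.103 on the log2 scale, and its log2 fold change was -0.047 ± 0.069 SE (adjusted p = 0.773, edgeR).

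The latency proteins included the genes that differed most. Ltbp2, a matrix protein that, unlike its relatives, does not bind latent TGF-beta, was the most abundant per kilobase of exon, at 59.2 to 66.0% of the latency protein transcripts in IRE1KO and 53.4 to 64.5% in WT. Ltbp1, the broadly expressed carrier of latent TGF-beta, took 21.2 to 25.3% and 19.1 to 26.8%, and Ltbp4, which also supports elastic fibre assembly, 3.94 to 5.02% and 3.44 to 6.35%. Ltbp3 took 10.2% in IRE1KO (SD 0.939, n = 5) and 14.4% in WT (SD 3.24, n = 4), where WT library 1, at 10.1%, lay within the IRE1KO range.

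Ltbp3 (chromosome 19, 5740904 to 5758532) was at 144.1, 141.6, 161.6, 136.7 and 173.6 CPM in IRE1KO libraries 1 to 5. In WT libraries 1 to 4 it was at 169.0, 248.7, 258.6 and 255.9 CPM. WT libraries 2 to 4 stood close together and above all other libraries, and the groups overlapped through WT library 1, which lay below IRE1KO library 5. The log2 fold change was -0.62 ± 0.13 SE, which is 0.650-fold, with a 95% interval of -0.91 to -0.33 and an adjusted p of 0.0714 in edgeR. Left out in turn, the libraries gave log2 fold changes from -0.75 to -0.57, and without WT library 1 the adjusted p in edgeR was 0.00307, within a range of 0.000675 to 0.227 over 18 alternatives, of which 3 passed.

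Ltbp4 (chromosome 7, 27305136 to 27337692) followed Ltbp3 across libraries, with 45.0, 45.9, 54.5, 43.4 and 52.3 CPM in IRE1KO and 41.1, 63.7, 65.9 and 64.5 CPM in WT. Here too WT libraries 2 to 4 were above all other libraries, and WT library 1 was the lowest of the 9. The log2 fold change was -0.29 ± 0.14 SE (adjusted p = 0.334, edgeR), with an interval of -0.60 to 0.025.

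Ltbp1 (chromosome 17, 75005568 to 75392512) was at 405.6, 326.9, 453.1, 386.6 and 472.8 CPM in IRE1KO and at 431.9, 540.3, 517.3 and 321.7 CPM in WT. It was lowest in WT library 4 and highest in WT library 2, with the IRE1KO libraries between them, and had a log2 fold change of -0.15 ± 0.16 SE (adjusted p = 0.675, edgeR). Ltbp2 (chromosome 12, 84783212 to 84876532) was at 721.7 to 920.3 CPM in IRE1KO and 728.7 to 974.3 CPM in WT, with a log2 fold change of -0.0047 ± 0.093 SE (adjusted p = 0.989, edgeR). Tgfb2, Tgfb3 and Tgfbr3 share 124, 420 and 297 exonic bases with predicted genes that were not analysed here. The strand setting of the counting is unknown, and Ltbp2 shares 764 exonic bases with D030025P21Rik on the opposite strand, which was far lower, at 11.1 CPM in IRE1KO (SD 0.853, n = 5) and 9.54 CPM in WT (SD 1.86, n = 4).

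**Figure D3:**
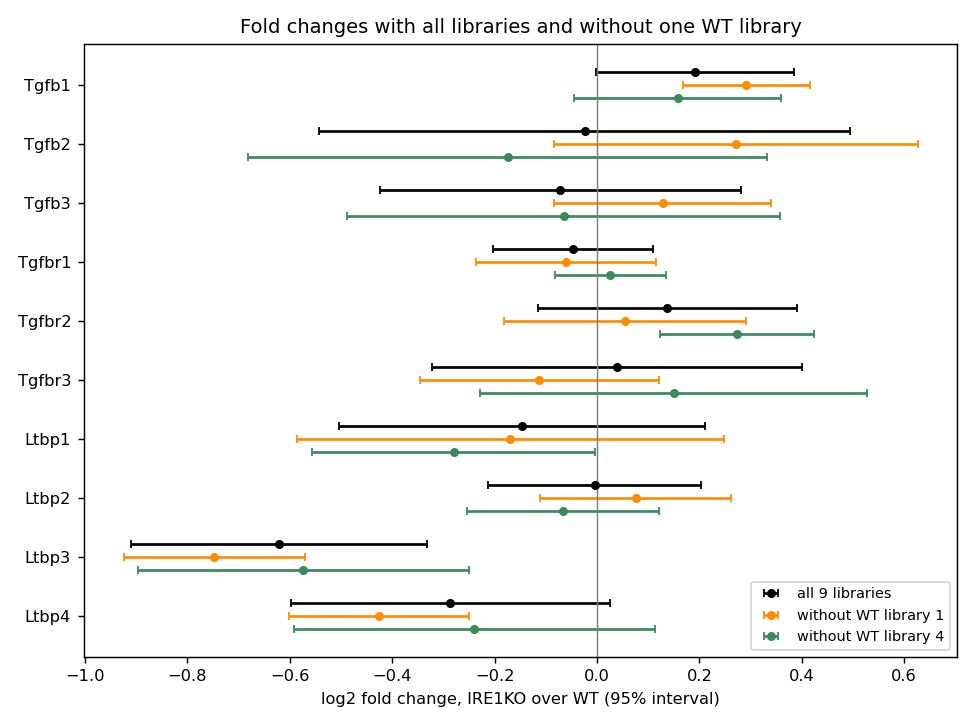
Log2 fold change of each gene, IRE1KO over WT, with its 95% interval from edgeR, with all 9 libraries (black), without WT library 1 (orange) and without WT library 4 (green). The interval of Ltbp3 lies below 0 in all 3 fits, those of Tgfb1 and Ltbp4 exclude 0 without WT library 1, and those of Tgfbr2 and Ltbp1 exclude 0 without WT library 4.

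Which of these genes were called depended on the tool, since DESeq2 called Ltbp3 with all 9 libraries, and in edgeR on WT library 1. Without it, 3 of the 10 passed an adjusted p of 0.05 in edgeR, against a background of 8.63% of 13820 tested genes: Ltbp3 (log2 fold change -0.75, adjusted p = 0.00307) and Ltbp4 (-0.43, adjusted p = 0.0185) fell, against 5.25% of all genes lower, and Tgfb1 (0.29, adjusted p = 0.0196) rose, against 3.37% higher. Over all 18 alternatives the adjusted p ranged from 0.0185 to 0.597 for Ltbp4 and from 0.0196 to 0.565 for Tgfb1, and 2 alternatives passed for each. Without WT library 4 none of the 10 passed, against 2.9% of all tested genes, with 3 at an unadjusted p under 0.05 in edgeR, against 20.1% of all genes. With 1 of the other libraries left out, edgeR called none of the 10, against 0.0439, 0.0146, 0.0585, 0.0587 and 0.022% of all genes without IRE1KO libraries 1 to 5 and 0.0508 and 0.0218% without WT libraries 2 and 3; Ltbp3 was the sole one at an unadjusted p under 0.05 in each, save that Tgfb1 joined it without IRE1KO library 4, against 11.7 to 14.9% of all genes in these 7 fits. None was called with no filter (0.253%), a stricter filter (0.518%), no robust dispersion (0.7%), other size factors (0.634%), IRE1KO libraries 3 and 5 summed (0.0732%) or the replicate block (0.0%). Without WT libraries 1 and 4 together, which leaves 2 WT libraries, 4 passed in edgeR against a background of 10.6%: the same 3 genes and Tgfb3, at a log2 fold change of 0.25. The direction of Ltbp3, Ltbp4, Ltbp1, Tgfb1 and Tgfbr2 was the same in all 18 alternatives, and that of Tgfb2, Tgfb3, Tgfbr1, Tgfbr3 and Ltbp2 was not.

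WT library 1 lay outside the range of the other 3 WT libraries for 8 of the 10 genes, and for 62.1% of all tested genes. It was above them for Tgfb1, Tgfb2, Tgfb3 and Ltbp2, so that every ligand was highest there among WT, and below them for Tgfbr2, Tgfbr3, Ltbp3 and Ltbp4. Summed over the 3 ligands, CPM per kilobase was 74.3 to 81.8 in IRE1KO, 111.7 in WT library 1 and 61.0 to 77.3 in the other WT libraries. Summed over the 3 receptors, it was 50.5 to 53.6 in IRE1KO, 38.7 in WT library 1 and 43.5 to 60.4 in the other WT libraries. Each of the 10 genes had a larger SD on the log2 scale in WT than in IRE1KO, as did 82.7% of all tested genes. The median SD of the 10 was 0.093 in IRE1KO and 0.312 in WT, and that of all tested genes 0.077 and 0.165.

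**Figure D4:**
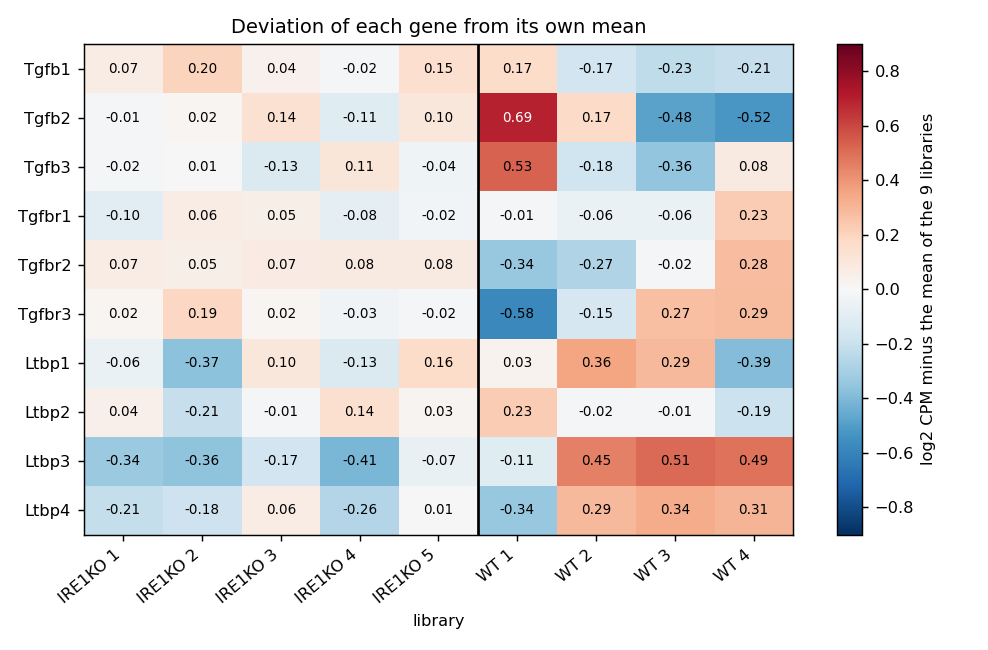
Log2 CPM of each gene minus its mean over the 9 libraries, with IRE1KO libraries left of the line and WT libraries right of it; red is above and blue below the mean. In WT library 1, Tgfb2 is at 0.69 and Tgfb3 at 0.53 while Tgfbr3 is at -0.58, and Ltbp3 is at 0.45 to 0.51 in WT libraries 2 to 4 only.

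Markers of other cell types also differed between the WT libraries, the glial ones in the same split of WT library 1 from WT libraries 2 to 4 as Ltbp3 and Ltbp4. The 8 glial markers summed to 12.6 to 18.7 CPM in IRE1KO, and to 21 CPM in WT library 1 and 54.6, 61.9 and 86.9 CPM in WT libraries 2 to 4; Sox10, a defining marker, was at 0 to 0.973 CPM in IRE1KO and 0.970 to 9.83 CPM in WT. Of 6 tested glial markers, 1 fell in edgeR, Ngfr, against 0.634% of all genes, and DESeq2 called 7 of 8 lower, against 3.27% of its genes called. The 8 adipocyte markers summed to 61.8 to 71.1 CPM in IRE1KO and 88.0, 94.8, 140.7 and 136.2 CPM in WT libraries 1 to 4, so that WT library 2 lay near WT library 1, unlike for Ltbp3 and Ltbp4. Lpl, Plin4 and Fabp4 among the 5 tested fell in edgeR, against 0.634% of all genes. Cd36, also tested, was at 12.1 to 27.0 CPM in IRE1KO and 5.44 to 26.5 CPM in WT, with a higher mean in IRE1KO. No marker of either list was called in limma voom, with the replicate block, with IRE1KO libraries 3 and 5 summed, or without any single IRE1KO library, WT library 2 or WT library 3, and with no filter Plin4 alone was called. Without WT library 1, edgeR called 7 of 7 tested glial and 3 of 5 adipocyte markers lower, against 5.25% of all genes lower. Without WT library 4 it called 4 of 6 and 4 of 5 lower, against 2.9% of all genes called. Without WT libraries 1 and 4 together it called 7 of 7 and 4 of 5 lower, against 10.6% of all genes called. Of the defining adipocyte genes, Cidec was at 0 in every library and Adipoq at or below 0.0512 CPM in IRE1KO and 0.505 CPM in WT. How far the flow sort for Osx1-Cre cells removed such cells was not tested, nor was their part in the values of Ltbp3 and Ltbp4.

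On a scale of CPM per kilobase of exon over all 9 libraries, Ltbp2 led with 102.2 ± 9.83 (SD, n = 9), followed by Tgfb3 at 60.3 ± 11.0, Ltbp1 at 40.1 ± 7.17, Tgfbr2 at 24.8 ± 3.18 and Ltbp3 at 20.7 ± 5.68. Tgfbr3 was at 18.1 ± 3.02, Tgfb2 at 10.0 ± 2.62, Tgfb1 at 9.00 ± 1.02, Ltbp4 at 8.19 ± 1.51 and Tgfbr1 at 7.47 ± 0.560. Neighbours in this order overlapped in range, except that Ltbp2 was above Tgfb3 and Ltbp1 above Tgfbr2 without overlap. Ltbp3 and Tgfbr3 changed places between libraries, with Ltbp3 the higher in 5 of 9, while Tgfb3 was above Ltbp1 in 8 of 9.

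The genes that varied most over the libraries were Ltbp3 (SD 0.381 on the log2 scale) and Tgfb2 (SD 0.363). Likeness of profiles was measured as the root mean square difference between log2 CPM values centred on each gene's mean over the 9 libraries. By that measure the genes outside this set nearest to Ltbp3 were Itga7, an integrin chain of muscle (0.094), Myl6b, a myosin light chain (0.105), and Mmp16, a membrane-type matrix metalloproteinase (0.113), against a median of 0.388 over all candidates. Mmp16 was at 61.4 to 66.5 CPM in IRE1KO and 73.6 to 118.8 CPM in WT. Those near to Tgfb2 included Rab3ip, a regulator of Rab GTPases (0.089), and Zdbf2, an imprinted gene (0.099), against a median of 0.364. For Ltbp3 and Tgfb2 alike, these genes were picked as the nearest of all candidates, so distances under the median follow from the choice. Among the 10 genes, Ltbp4 was nearest to Ltbp3, at 0.175, Tgfbr2 and Tgfbr3 were the closest pair, at 0.148, and Tgfb2 and Ltbp3 were the farthest apart, at 0.595.

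The other genes of the pathway were described from 4 lists with 77 genes in all, each of which was tested. None passed an adjusted p of 0.05 in edgeR, against 0.634% of all genes; at an unadjusted p under 0.05, 8 were higher and 10 lower in IRE1KO, against 7.14% of all tested genes higher and 9.36% lower. DESeq2 called 6 of the 77, against 3.27%, and limma voom none. The median log2 fold change was 0.032, and the groups separated completely for 5 of the 77, with 2 higher and 3 lower, against 6.93% of all tested genes (3.65% higher, 3.28% lower). Without WT library 1, 8 passed, against 8.63% of all genes, and without WT library 4, 11 passed, against 2.9%.

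Of 22 genes that activate latent TGF-beta or anchor it in the matrix, none passed in edgeR, 2 were lower at an unadjusted p under 0.05 (9.36% of all tested genes), and the median log2 fold change was -0.076. Tgm2, a transglutaminase that cross-links latent complexes to the matrix, was at 27.7 to 29.2 CPM in the IRE1KO libraries and at 56.2, 47.7, 36.5 and 35.0 CPM in WT libraries 1 to 4, so that the groups did not overlap (log2 fold change -0.63 ± 0.13 SE, adjusted p = 0.0687, edgeR). Itgb8, an integrin chain that binds the latent propeptide, was at 8.54 to 10.6 CPM in IRE1KO and 10.0 to 23.2 CPM in WT, and Mmp9, a protease that can release the ligand, was at 0.384 to 2.42 CPM and 0.0513 to 0.888 CPM, of which the lowest WT value is under 3 counts. The log2 fold change of Itgb8 was -0.57 (adjusted p = 0.247, edgeR), and -0.28 without WT library 4 (adjusted p = 0.300, edgeR). Tgm2 fell in the edgeR fits without WT library 1 (-0.49, adjusted p = 0.0206) and without WT library 4 (-0.72, adjusted p = 0.0201), within a range of 0.00114 to 0.274 over 18 alternatives, of which 4 passed.

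Of 11 co-receptors and extracellular modulators, none passed in edgeR, 3 were higher and 1 lower at an unadjusted p under 0.05 (7.14% and 9.36% of all tested genes), and the median was 0.096. Bambi, a pseudoreceptor that dampens TGF-beta and BMP signals, was at 9.16 CPM in IRE1KO (SD 0.305, n = 5) and 11.8 CPM in WT (SD 1.42, n = 4) (adjusted p = 0.0908, edgeR). Bambi passed without WT library 1 (log2 fold change -0.44, adjusted p = 0.0133, edgeR), and in 3 of 18 alternatives in all. Fmod, fibromodulin, a small proteoglycan that binds TGF-beta and collagen, was at 541.0 to 848.3 CPM in IRE1KO and 394.1 to 525.8 CPM in WT, without overlap (log2 fold change 0.56 ± 0.14 SE, adjusted p = 0.110, edgeR). Vasn, vasorin, a membrane protein that binds TGF-beta, was higher by 0.16 ± 0.063 SE on the log2 scale, with an adjusted p of 0.246 in edgeR. It passed without WT library 1 (0.21, adjusted p = 0.0489, edgeR), and in 1 of 18 alternatives in all.

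Of 18 SMADs and feedback genes, none passed in edgeR, 2 were higher and 1 lower at an unadjusted p under 0.05 (7.14% and 9.36% of all tested genes), and the median was 0.058. Tgif1, a corepressor of SMAD targets, was at 28.6 CPM in IRE1KO (SD 1.02, n = 5) and 33.2 CPM in WT (SD 2.93, n = 4). It passed without WT library 4 (log2 fold change -0.27, adjusted p = 0.0318, edgeR), and in 2 of 18 alternatives in all. Trim33 and Nedd4l, ubiquitin ligases that act on SMAD complexes, had log2 fold changes of 0.11 ± 0.043 SE and 0.22 ± 0.087 SE. Smad2, Smad3 and Smad4, which carry the signal to the nucleus, had log2 fold changes of 0.071, 0.085 and 0.055. That of Smad7, also in this list, was -0.36 (adjusted p = 0.362, edgeR). In edgeR, Smad7 was called lower without WT library 4 (2.9% of all genes called) and without WT libraries 1 and 4 (10.6%).

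Of 26 genes that TGF-beta induces in mesenchymal cells, none passed in edgeR, 3 were higher and 6 lower at an unadjusted p under 0.05 (7.14% and 9.36% of all tested genes), and the median was 0.024. Ctgf, which encodes a matricellular protein, was at -0.41 on the log2 scale (adjusted p = 0.628, edgeR). Lox, which cross-links collagen, had a log2 fold change of 0.54 ± 0.12 SE (adjusted p = 0.0773, edgeR), and passed both without WT library 1 (0.69) and without WT library 4 (0.46), but in 4 of 18 alternatives in all, with adjusted p from 0.000815 to 0.236. Snai2, a transcription factor of mesenchymal cells, was at 34.3 to 36.1 CPM in IRE1KO and 39.4 to 57.1 CPM in WT, without overlap (log2 fold change -0.40 ± 0.093 SE, adjusted p = 0.0934, edgeR), and also passed in both of those fits, and in 4 of 18 alternatives in all, with adjusted p from 0.00357 to 0.280. Klf10, an early TGF-beta response gene, had a log2 fold change of -0.27 ± 0.066 SE (adjusted p = 0.106, edgeR). It passed without WT library 4 (-0.33, adjusted p = 0.0223, edgeR), and in 3 of 18 alternatives in all.

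**Figure D5:**
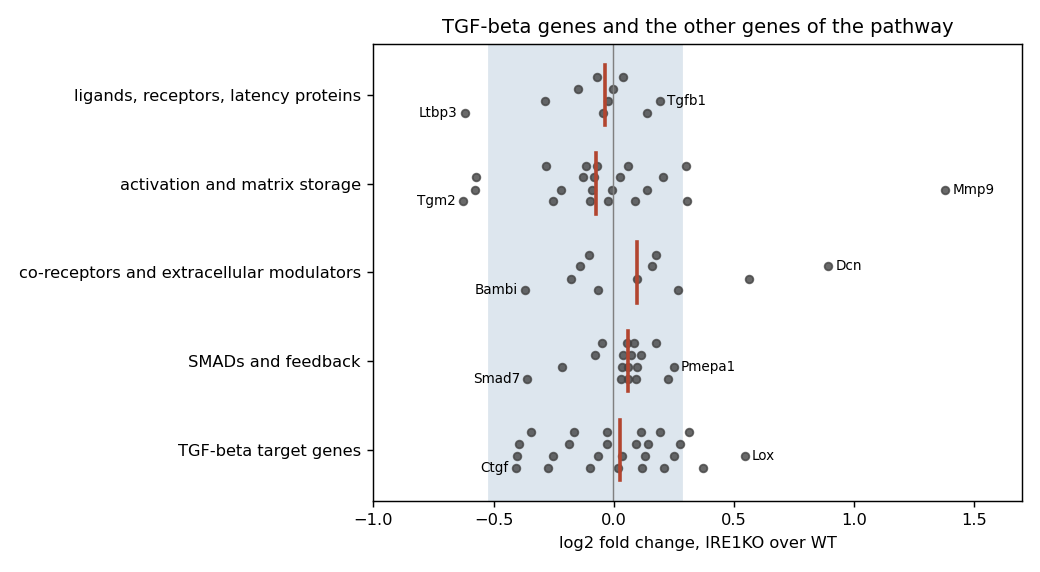
Log2 fold change, IRE1KO over WT, of the 10 ligand, receptor and latency genes and of the genes in each pathway list; each point is a gene, red lines are list medians, and the shaded band runs from the 5th to the 95th percentile of all 13712 tested genes (-0.519 to 0.284). The list medians lie between -0.076 and 0.096, and Ltbp3 is the single one of the 10 genes outside the band.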

How the data were processed

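The deposited table holds unnormalized read counts for each gene. Per the submitters' processing notes, STAR, limma and mm10 were used, with no role or version stated. How reads were assigned to genes (program, annotation, strand) was not given in the sources used here. Per the labels, libraries were directional, came from polyadenylated RNA, and were prepared and sequenced in 1 batch.

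The fits used edgeR 4.0.16 under R 4.3.3 (filterByExpr, TMM, robust quasi-likelihood test with genotype as the sole term, Benjamini-Hochberg adjustment over all 13712 tested genes, threshold 0.05), with limma 3.58.1 (voom) and DESeq2 1.42.0 as alternatives. Tables were built with pandas 2.3.3, NumPy 2.4.6 and SciPy 1.17.1 (Python 3.11.15), and figures with matplotlib 3.10.9. CPM are scaled by TMM. Standard errors and 95% intervals were derived from the F statistic of edgeR. Positions and exon lengths (union of exons) came from GENCODE M21 on GRCm38 by Ensembl identifier, and 24957 of 25860 genes had one. Promoter sequences came from RefSeq.

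A count of 3, the floor, was 0.136 to 0.16 CPM, and intervals on counts cover counting error only. The spread between libraries includes biological variation, since the labels call each pool of pups a biological replicate. The steps were tested on simulated data with the same spread in both groups. That test does not cover the larger spread of the WT libraries seen here.

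The 10 genes, the pathway lists (activation and storage, co-receptors and modulators, SMADs and feedback, target genes) and the marker lists (osteoblast, chondrocyte, adipocyte, glia, macrophage, endothelium, mural cells) were chosen with earlier results of these data known. Named genes were the 10, the passing genes of each pathway list or else the 3 with the smallest p, the 3 nearest profiles to each of the 2 most variable of the 10, and Ern1. Some genes that fall under these rules are not reported here. Smad2, Smad3, Smad4, Smad7, Ctgf and the overlapping gene D030025P21Rik were named after their values were seen. Alternatives were other scaling, filters, tools and dispersion, each library left out, IRE1KO libraries 3 and 5 summed, WT libraries 1 and 4 left out together, and the replicate number as a block.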

Additional observations from a re-analysis of the deposited data

Results flagged for a closer look

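Among the 22 named genes of the set and its pathway lists, 44 groups were examined for a library far from its group, of which chance alone marks about 1 in 20, and 6 were marked. WT library 1 stood apart from the other WT libraries in 3 of the genes: Tgfb1 was at 50.6 CPM against 38.5 to 40.1 CPM, Ltbp3 at 169 CPM against 249 to 259 CPM and Ltbp4 at 41.1 CPM against 63.7 to 65.9 CPM. WT library 1 lay within the range of the IRE1KO libraries for Tgfb1 and Ltbp3 and below it for Ltbp4. Tgfbr1 was at 57.1 CPM in WT library 4, against 46.6 to 48.3 CPM in the other WT libraries. In IRE1KO, Tgfbr3 was at 133 CPM in library 2, against 114 to 118 CPM in the others, and Itgb8 at 8.54 CPM in library 5, against 10.3 to 10.6 CPM.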

How the results depend on the processing

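The number of genes called depended on the libraries and the tool. Over all genes it was 87 in edgeR with all libraries, 582 in DESeq2, 16 in limma voom, 45 without a filter, 10 with IRE1KO libraries 3 and 5 summed, 1481 without WT libraries 1 and 4, and 2 to 1192 with 1 library left out (6, 2, 8, 8 and 3 without IRE1KO libraries 1 to 5, and 1192, 7, 3 and 399 without WT libraries 1 to 4). Of the 10 TGF-beta genes 0 were called, but 1 in DESeq2, 4 without WT libraries 1 and 4, and 0 to 3 with 1 library left out. Of the 77 pathway genes 0 were called, but 6 in DESeq2, 15 without WT libraries 1 and 4, and 0 to 11 with 1 library left out. The cause was not tested.

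Of 180 refits of the 10 genes, 156 kept direction and side of the threshold, 7 passed it in the same direction and 17 reversed sign, of which 1 also passed (Tgfb3 without WT libraries 1 and 4). The reversals were all in Tgfb2, Tgfb3, Tgfbr1, Tgfbr3 and Ltbp2. With 1 library left out their log2 fold changes ranged from -0.17 to 0.27, from -0.19 to 0.13, from -0.078 to 0.026, from -0.11 to 0.15 and from -0.066 to 0.075. Without WT libraries 1 and 4 they were 0.15, 0.25, 0.044, -0.037 and 0.019, and that of Tgfb2 was 0.062 in limma voom and 0.040 with the replicate block.

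The replicate numbers mark nothing shared in the labels, and the correlation of deviations across genes between same-numbered libraries was 0.151, -0.204, -0.194 and 0.473 for numbers 1 to 4; 4 of 8 libraries correlated best with their own number. With the replicate block, which drops IRE1KO library 5, 0 genes passed in edgeR over all genes, among the 10 and among the 77, with 1594, 1 and 12 at an unadjusted p under 0.05.

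With the longest coding length in place of exon length, chosen after the data were seen, mean shares over the 9 libraries were 15.9, 17.5 and 66.6% for Tgfb1, Tgfb2 and Tgfb3, 16.9, 59.2 and 23.9% for Tgfbr1, Tgfbr2 and Tgfbr3, and 27.8, 51.9, 16.7 and 3.56% for Ltbp1 to Ltbp4, against 11.5, 12.6, 75.9, 15.0, 49.3, 35.7, 23.3, 59.8, 12.1 and 4.80% with exon length; these moves follow from the lengths. The planned coding length from RefSeq proteins was not run.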

Other observations

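The marker lists not set beside a result above had the following summed levels. The 7 chondrocyte markers summed to 708 to 1400 CPM in IRE1KO and 1370 to 1430 CPM in WT, most of it Col2a1, the cartilage collagen. All 6 tested had negative log2 fold changes in edgeR, with a median of -0.86. None passed there, and 3 were lower at an unadjusted p under 0.05, against 9.36% of all tested genes. DESeq2 called 1, Lect1, lower, against 3.27% of its genes. Comp was at 11.0 to 39.2 CPM in IRE1KO and 27.2 to 118 CPM in WT. The 8 macrophage markers, of cells that also make Tgfb1, summed to 75.2 to 173 CPM in IRE1KO and 43.1 to 169 CPM in WT, with all 8 detected in both. The 7 endothelial markers summed to 10.3 to 15.2 CPM in IRE1KO and 12.1 to 25.4 CPM in WT, with Tie1 at 0 in every library. Pecam1, an adhesion molecule of endothelium, was at 0.0531 to 0.291 CPM in IRE1KO and 0.562 to 0.924 CPM in WT, without overlap, and fell in edgeR, against 0.634% of all genes, and in DESeq2; it was not called in limma voom, with no filter, or without any single IRE1KO library, WT library 2 or WT library 3. The floor of 3 counts lies at 0.136 to 0.16 CPM.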
